A study of Mus musculus with 2 samples.

Results

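Type 1 conventional dendritic cells (cDC1) are a rare subset of dendritic cells (DCs), and they were followed here among CD45+ cells sorted from mouse MC38 tumours. Members were chosen by their unique molecular identifiers (UMIs, counts of single captured transcripts), with at least 500 UMIs in all and at most 10% of them from mitochondrial genes. A member had at least 2 UMIs of Xcr1 and Clec9a together, none of Ccr7, Siglech, Cd3d, Cd3e or Cd3g, and at most 2 of C1qa, C1qb and C1qc together. This selected 130 of 32608 cells kept in the control library and 81 of 34423 in the treated library, 211 of 67031 cells in all. Levels of the genes named in that rule are therefore a description of the choice and not a finding.

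Both groups carried tumours grown from MC38, a mouse colon carcinoma line, and both were taken at day 19 after inoculation. The control group is called Ctrl. The treated group is called BiDT, a name that is not spelled out in the labels, while the title of the series speaks of an interferon fused to an antibody against TIM3. Tumours were digested with collagenase and DNase, live CD45+ cells were sorted, and 5 biological replicates per group were pooled into 1 library. The dose, the schedule, the treatment of the controls, and the strain, age and sex of the mice are not given in the sources used here. With 1 library per group and no way back to the pooled replicates, no test between groups was possible. All intervals below are 95% intervals that cover counting error only, and the treatment cannot be told apart from any other difference between the 2 libraries.

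cDC1 take up material from dying cells and present its peptides on MHC class I to CD8 T cells, a route called cross-presentation. They develop under the transcription factors Irf8 and Batf3, sense chemokine from NK and CD8 T cells through Xcr1, bind dead cells through Clec9a and need Wdfy4 to cross-present antigen from cells. On maturation they gain Ccr7, which guides them to lymph nodes. Type I interferon reaches them through the receptor chains Ifnar1 and Ifnar2, and then factors such as Stat2 and Irf9, which bind the interferon-stimulated response element of target genes.

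The 2 libraries differed in depth. Ctrl held 211047063 UMIs and BiDT 130313537, with medians of 4267.5 and 2670 UMIs per cell kept. The same gap held among cDC1, whose median depth was 6225 UMIs in Ctrl, with a range from 1558 to 29767, against 3925 in BiDT, with a range from 1157 to 27228. Their UMIs summed to 936013 and 386277. The median mitochondrial share of a cDC1 was 1.69% in Ctrl and 1.03% in BiDT, and Malat1, a nuclear RNA, took 0.439% and 0.907% of their UMIs. Scrublet gave 6 of the Ctrl cDC1 (4.62%) and 3 of the BiDT cDC1 (3.70%) a doublet score of 0.15 or more, and these cells were kept. A total of 675 barcode strings occurred among the kept cells of both libraries, and such cells were treated as separate cells.

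Genes of the cDC1 programme that the rule did not use were detected in the members, some widely and some in a minority. Irf8 was detected in 108 of 130 Ctrl cDC1 (83.1%) and 66 of 81 BiDT cDC1 (81.5%), at 1363 and 1445 counts per 1000000 UMIs (CPM). Wdfy4 was detected in 83.1% and 69.1% of them, at 915 and 906 CPM. Naaa, an amidase of lysosomes, was detected in 93.8% and 84.0%. Cadm1, an adhesion molecule of the subset, was found in 32.3% and 38.3%, Tlr3, a receptor for double-stranded RNA, in 32.3% and 30.9%, and Batf3 in 40.8% and 34.6%.

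The same genes separated cDC1 from the DCs most like them to differing degrees. Cells with at least 2 UMIs of Cd209a (286 in Ctrl, 122 in BiDT, chosen as type 2-like DCs and called Cd209a cells below) had Cadm1 in 0.350% and 1.64% and Tlr3 in 2.80% and 3.28% of cells. Cells with at least 2 UMIs of Ccr7 and at least 1 of Fscn1 (330 and 115, chosen as migratory DCs and called Ccr7 Fscn1 cells) had Wdfy4 in 17.0% and 6.96% and Naaa in 24.5% and 13%. Other genes divided the classes less or not at all. Cd209a cells had Naaa in 71.3% and 77.9% and Wdfy4 in 50.7% and 36.9% of cells, and cells with at least 10 C1q UMIs (called C1q-rich cells) had Naaa in 73.2% and 43.0%. Batf3 was detected in 48.5% of Ctrl Ccr7 Fscn1 cells, above the 40.8% of Ctrl cDC1. Gcsam was detected in 30.0% and 25.9% of cDC1 and in 4.85% of the Ctrl Ccr7 Fscn1 cells. Irf8 was no such divider, since it was detected in 88.8% and 86.1% of Ccr7 Fscn1 cells, a larger share than in cDC1. T cells chosen by their Cd3 UMIs (called Cd3 cells) carried a UMI of Irf8 in 57.1% and 57.2% of cells. Free RNA can place a UMI in a cell that does not express the gene. Cd3 cells, with medians of 3575 and 3325 UMIs, had Wdfy4 in 9.28% and 4.55% and Naaa in 21.8% and 15.2%, far under the shares in cDC1.

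**Figure D1:**
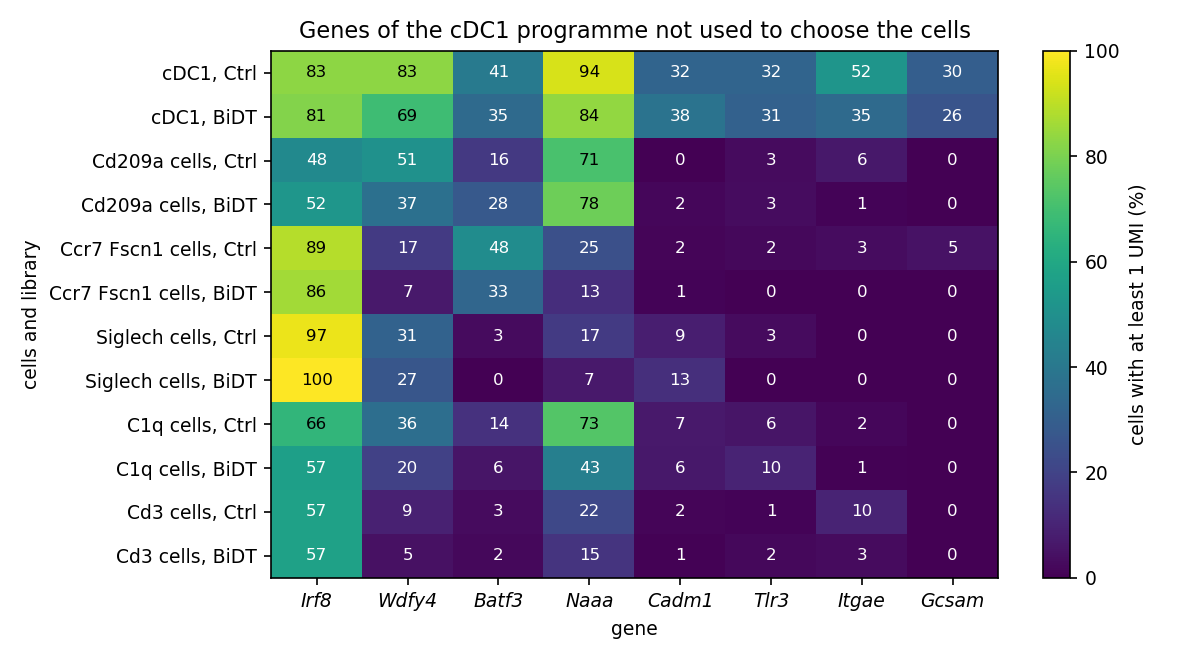
Percent of cells with at least 1 UMI of 8 genes of the cDC1 programme that were not used to choose the cells (columns), in cDC1 and 5 other classes of cells in the Ctrl and BiDT libraries (rows). Wdfy4, Cadm1, Tlr3, Itgae and Gcsam were detected in a larger share of cDC1 than of any other class shown, while Irf8 was detected widely.

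The members were not uniform. Those with exactly 2 UMIs of Xcr1 and Clec9a, just inside the threshold, numbered 55 in Ctrl and 34 in BiDT and held Irf8 at 754 and 659 CPM. Cells with 1 such UMI, just outside, numbered 251 and 155 and held Irf8 at 524 and 553 CPM. Members with 5 or more such UMIs numbered 42 and 27 and held Irf8 at 2001 and 2122 CPM and Naaa at 3015 and 3391 CPM. Cd209a, a gene of type 2 DCs and monocyte-derived cells, was at 0 in those members of both libraries, against 48.7 and 77.9 CPM in the members with 2 and 137 and 0 CPM in those with 3 or 4. Lyz2, the lysozyme of macrophages and monocytes, ran the other way from Irf8, from 2225 CPM with 2 UMIs to 682 with 5 or more in Ctrl and from 850 to 480 in BiDT. Cells with few UMIs of the choosing genes thus carried less of the cDC1 programme and more Lyz2 in both libraries. Lyz2 was the only macrophage gene compared along these steps. In each library 8 members had neither Irf8 nor Wdfy4. On the C1q side, 75 Ctrl and 33 BiDT members had 1 or 2 C1q UMIs, and the cells just outside with 3 or 4 numbered 17 and 1. An independent rule that asked for at least 3 of Wdfy4, Cadm1, Tlr3, Gcsam, Snx22 and Batf3 found 73 Ctrl and 49 BiDT cells, of which 50 and 32 were members. These shared cells made up 38.5% and 39.5% of the members and 68.5% and 65.3% of that rule's cells.

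cDC1 made up a smaller share of the sorted cells in the BiDT library. They were 0.399% of kept cells in Ctrl (0.333% to 0.473%) and 0.235% in BiDT (0.187% to 0.292%), a log2 ratio of -0.76 (-1.18 to -0.35). The other DC classes were lower too, the Cd209a cells at 0.877% and 0.354% and the Ccr7 Fscn1 cells at 1.01% and 0.334%. Within the 3 classes together, cDC1 were 130 of 746 cells in Ctrl (17.4%, 14.8% to 20.3%) and 81 of 318 in BiDT (25.5%, 20.8% to 30.6%), a log2 ratio of 0.55 (0.13 to 0.96). cDC1 thus formed a smaller part of all cells and a larger part of these DCs in BiDT.

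Both shares depend on how often 2 UMIs of Xcr1 and Clec9a could be seen, and BiDT cells were shallower. With every cell thinned to 1000 UMIs, 34 Ctrl and 27 BiDT cells passed the rule, 0.104% and 0.0784% of kept cells, a log2 ratio of -0.41 (-1.20 to 0.36), and 8.19% and 16.5% of the 3 DC classes. Without any C1q UMI, 55 and 48 cells passed, 0.169% and 0.139% of kept cells, a log2 ratio of -0.27 (-0.86 to 0.31). The lower share of all cells was therefore not resolved from counting error under those 2 settings, while the larger share of the DC classes was.

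**Figure D2:**
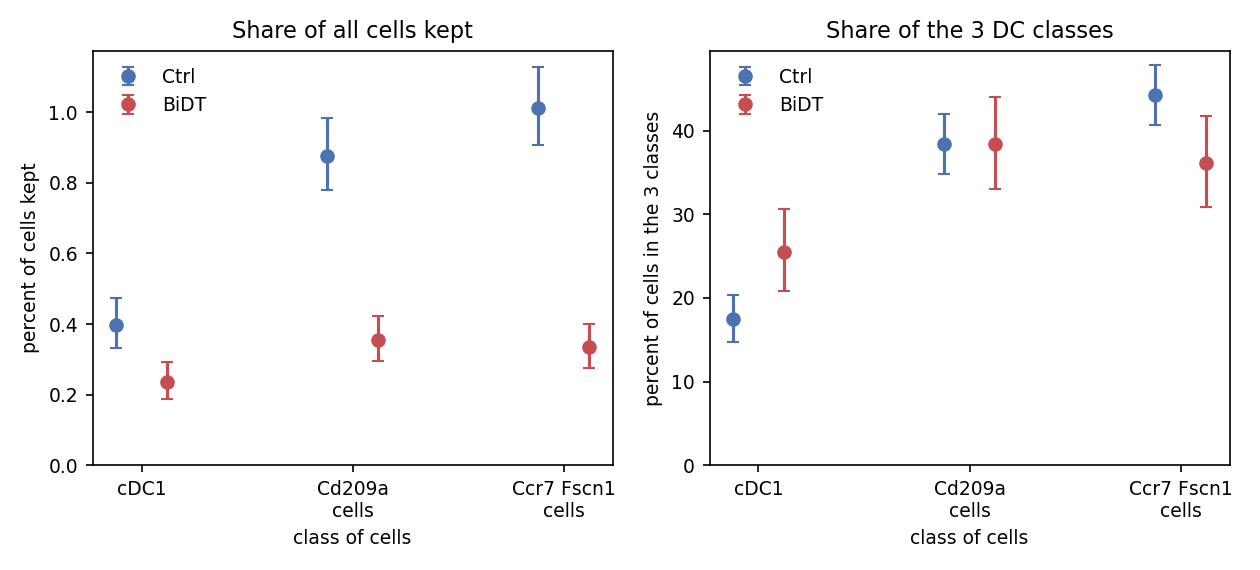
Percent of all kept cells (left) and of the 3 DC classes (right) that were cDC1, Cd209a cells or Ccr7 Fscn1 cells in the Ctrl and BiDT libraries, with exact 95% intervals for counting error. All 3 classes were lower in BiDT as a share of kept cells, and cDC1 were higher as a share of the 3 classes.

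Among cells that met the rest of the rule, a smaller share carried Ccr7, the receptor gained on maturation, in BiDT. In Ctrl 25 of 155 such cells had a Ccr7 UMI (16.1%, 10.7% to 22.9%), and in BiDT 5 of 86 did (5.81%, 1.91% to 13%), a log2 ratio of -1.47 (-3.21 to -0.06). The interval reached nearly to no difference, and thinning left 2 of 36 and 1 of 28 cells, too few to read a direction. The other conditions removed cells as well. Of 298 Ctrl and 129 BiDT cells with the 2 choosing UMIs, 84 and 22 failed only for C1q, 12 and 6 only for a Cd3 gene, and 10 and 3 only for Siglech.

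Summed over the members, 4041 genes had at least 50 UMIs in the 2 libraries together and were compared as CPM, leaving out mitochondrial genes and the genes of the rule. Of these, 151 were at least 2-fold higher in BiDT cDC1 (3.74%) and 127 at least 2-fold lower (3.14%), and the median log2 ratio of BiDT over Ctrl was -0.03. Genes with few UMIs pass a fold more easily, and a ratio of summed counts follows the members with the most UMIs. A counting interval also takes each UMI as independent, although UMIs of 1 cell are not.

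Interferon-stimulated genes stood highest. Of 33 compared members of a type I interferon list, 27 were at least 2-fold higher in BiDT cDC1, against 3.74% of all genes. None was 2-fold lower, and the median log2 ratio was 1.53 against the -0.03 of all genes. Like the other lists below, this list was chosen with earlier results of these data known, so its direction is no independent evidence. All 33 had a ratio above 0, and for 30 of them the counting interval lay above no change. The list has 54 symbols, of which Mx1, Mx2 and Rigi were not analysed here, and 18 more had under 50 UMIs.

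Rsad2, the antiviral enzyme viperin, had 16 UMIs in 12 Ctrl cDC1 and 245 in 44 BiDT cDC1, or 17.1 and 634 CPM, a log2 ratio of 5.21 (4.48 to 6.04). Ifit2, which binds viral RNA, had 9 and 182 UMIs and a log2 ratio of 5.61 (4.66 to 6.77). Isg15, a ubiquitin-like modifier, had 130 and 297 UMIs, or 139 and 769 CPM, a log2 ratio of 2.47 (2.17 to 2.78). No single cell carried these values, since the BiDT cell with the most UMIs held 17.6% of those of Rsad2, 10.4% of Ifit2 and 6.4% of Isg15.

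The sensors and regulators of the pathway followed. Irf7, the factor that amplifies interferon production, went from 76.9 CPM in Ctrl to 414 in BiDT (log2 ratio 2.43, 2.02 to 2.85), and Ifih1, the RNA sensor MDA5, from 26.7 to 140 CPM (2.39, 1.68 to 3.13). Among 2'-5' oligoadenylate synthetase genes named for their high ratios, Oasl1 had a log2 ratio of 4.08, Oasl2 of 2.80 and Oas3 of 2.51. Slfn5 (2.27), Xaf1 (2.43), Parp14 (2.35) and Ifi209 (2.41) lay in the same range. Ifi209, Ifi203 and Ifi204 are near copies of one another, as are Slfn and Trim30 genes, so their counts could have been split between copies. At the lower end, Ifi35 (108 and 127 CPM, log2 ratio 0.23, -0.29 to 0.74) and Ly6e (1220 and 1489 CPM, 0.29, 0.14 to 0.43) differed little.

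Most BiDT cells were above the usual Ctrl level. The list took a median of 0.389% of a cell's UMIs in Ctrl cDC1 (0.0414% to 1.83%) and 0.937% in BiDT cDC1 (0.191% to 4.42%). Of the 81 BiDT cells, 76 lay above the Ctrl median and 17 above the highest Ctrl cell. The lowest BiDT cells overlapped the Ctrl range. Thinned to 1000 UMIs per cell, Isg15 was found in 10 of 130 Ctrl cDC1 (7.69%, 3.75% to 13.7%) and 36 of 81 BiDT cDC1 (44.4%, 33.4% to 55.9%), and unthinned in 33.8% and 76.5%.

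Other cells carried the same transcripts. Thinned Isg15 was found in 13.4% and 74.9% of C1q-rich cells, with medians of 7334.5 and 3666 UMIs, and in 8.01% and 55% of Cd3 cells. Isg15 in BiDT was at 769 CPM in cDC1 and 2100.5 CPM in C1q-rich cells, so free RNA from abundant cells could add to it, and that part was not tested. Slfn4, at 11 and 191 UMIs, stayed under 10% of the level seen in another class of each library and was left out of the named genes for that reason.

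**Figure D3:**
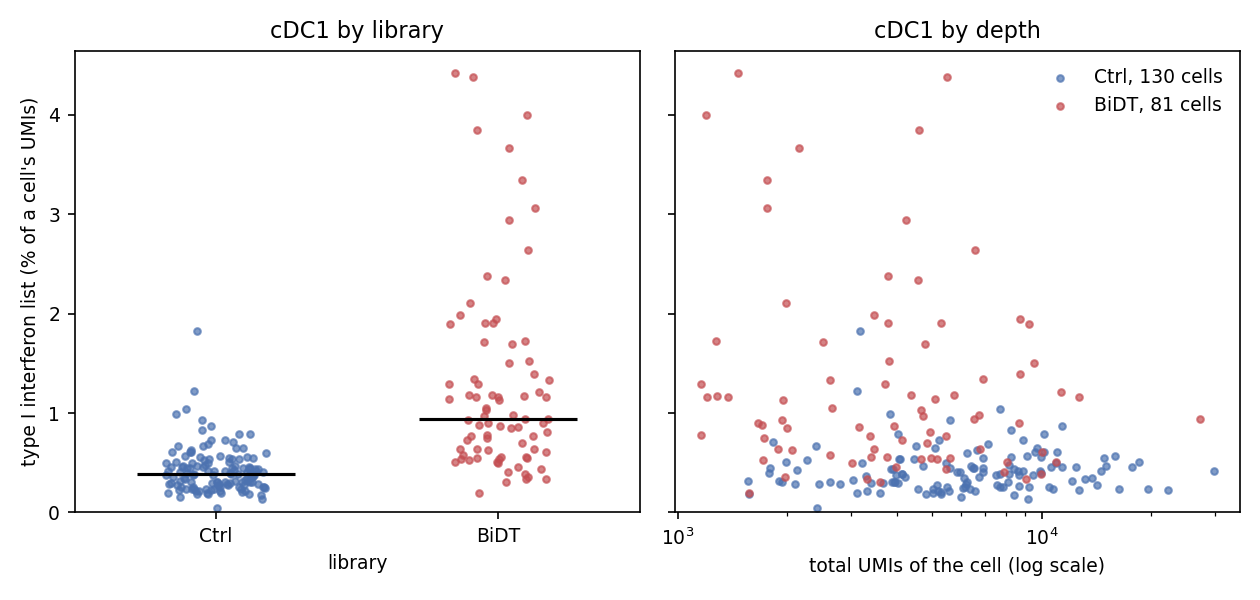
Percent of each cDC1's UMIs that belong to the type I interferon list, by library (left, with the median as a line) and against the cell's total UMIs on a log scale (right), for 130 Ctrl and 81 BiDT cells. Most BiDT cells lay above the Ctrl median of 0.389% at low and at high depth.

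The sequence around the start of these genes was searched for the core of the interferon-stimulated response element, GAAANNGAAA or its reverse TTTCNNTTTC, in RefSeq promoter windows of 300 bases (build GRCm38.p6), from 250 bases before the start to 50 after it. Of 33 compared list members 24 had a window, and 11 of these (45.8%) held the core, among them Ifih1 and Trim30a, whose only match began after the start. Over all 27025 genes with a window the share was 3.99% and over compared genes 5.04%. It was 20% over genes at least 2-fold higher in BiDT cDC1 and 2.94% over those at least 2-fold lower. Of the 24 higher genes that held the core, 10 were members of the list already counted. A match is a run of letters, not a shown binding site, and the windows at GRCm38 were not placed on the build of the deposited counts. The 200 bases before the start site are printed for 6 members, to show one without the core beside those that held it, read 5′ to 3′ on the gene's strand with the core in capitals: Isg15 (chr4:156200819-156201018, minus strand), Rsad2 (chr12:26456453-26456652, minus strand), Oas3 (chr5:120777660-120777859, minus strand), Slfn5 (chr11:82951902-82952101, plus strand), Bst2 (chr8:71537473-71537672, minus strand) and Ifit2 (chr19:34550494-34550693, plus strand). Isg15 held 3 overlapping matches beginning 78 to 66 bases before the start, Bst2 held 2, and Rsad2, Oas3 and Slfn5 held 1 each at 120, 75 and 155 bases before it. Ifit2, with the highest ratio of all, held none in this window. Oasl1, Oasl2, Xaf1, Irf7 and Ifi209, also among the 15 highest ratios, held none in theirs either.
Isg15: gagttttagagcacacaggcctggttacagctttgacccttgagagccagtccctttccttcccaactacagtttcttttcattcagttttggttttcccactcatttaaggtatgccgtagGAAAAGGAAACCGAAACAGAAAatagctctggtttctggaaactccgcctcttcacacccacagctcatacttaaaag
Rsad2: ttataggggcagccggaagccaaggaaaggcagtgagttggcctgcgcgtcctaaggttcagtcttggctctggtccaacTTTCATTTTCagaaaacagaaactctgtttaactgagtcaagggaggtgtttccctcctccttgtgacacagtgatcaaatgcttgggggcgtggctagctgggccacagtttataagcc
Oas3: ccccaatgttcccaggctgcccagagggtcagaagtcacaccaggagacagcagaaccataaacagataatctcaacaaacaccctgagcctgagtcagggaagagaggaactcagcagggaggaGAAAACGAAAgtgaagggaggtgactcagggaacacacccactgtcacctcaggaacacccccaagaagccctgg
Slfn5: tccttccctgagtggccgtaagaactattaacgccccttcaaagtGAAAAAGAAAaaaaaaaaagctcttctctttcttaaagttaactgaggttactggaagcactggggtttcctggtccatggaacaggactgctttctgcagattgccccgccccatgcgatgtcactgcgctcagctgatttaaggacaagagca
Bst2: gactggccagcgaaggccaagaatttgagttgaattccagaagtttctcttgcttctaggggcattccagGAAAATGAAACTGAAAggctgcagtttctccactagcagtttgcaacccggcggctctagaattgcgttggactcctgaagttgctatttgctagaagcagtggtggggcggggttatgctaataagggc
Ifit2: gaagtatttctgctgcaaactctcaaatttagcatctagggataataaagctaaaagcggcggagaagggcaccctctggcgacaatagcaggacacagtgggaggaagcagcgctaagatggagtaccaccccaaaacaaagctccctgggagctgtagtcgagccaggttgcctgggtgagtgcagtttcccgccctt

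The receptor and the transducers of the pathway differed less between the libraries than most of its targets. Of 14 compared genes of the TIM3 and interferon receptor list, 4 were at least 2-fold higher (Stat2, Irf9, Usp18 and Socs1), against 3.74% of all compared genes. Stat2, Irf9 and Usp18 are also members of the type I interferon list already counted, and Socs1 of the interferon gamma list below. None of the 14 was 2-fold lower, and their median log2 ratio was 0.43. Ifnar1 had 62 UMIs in Ctrl and 34 in BiDT (66.2 and 88.0 CPM, log2 ratio 0.41, -0.24 to 1.04), and Ifnar2 had 73 and 29 (78.0 and 75.1 CPM, -0.05, -0.73 to 0.58). Stat2 (181 and 378 CPM, 1.07, 0.74 to 1.39) and Irf9 (64.1 and 135 CPM, 1.07, 0.51 to 1.63) were about 2-fold higher. Of the brakes of the pathway, Usp18 was at 20.3 and 88.0 CPM (2.12, 1.27 to 3.01) and Socs1 at 52.3 and 132 CPM (1.33, 0.74 to 1.93), both higher in BiDT. Socs3 was at 262 and 173 CPM (-0.59, -1.01 to -0.20), and its direction turned under the rule of 6 other cDC1 genes (0.62).

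Havcr2, the gene of TIM3, was detected in cDC1 and lower in BiDT. It had 176 UMIs in 70 of 130 Ctrl cells and 48 UMIs in 26 of 81 BiDT cells, or 188 and 124 CPM, a log2 ratio of -0.60 (-1.09 to -0.13). With cells thinned to 1000 UMIs the shares were 18.5% (12.2% to 26.2%) and 12.3% (6.08% to 21.5%), whose intervals overlap, and Cd3 cells, some of which make TIM3 themselves, were at 14.6% in Ctrl and 18.4% in BiDT. Summed over those Cd3 cells Havcr2 was at 159 and 225 CPM, under the level of cDC1 in Ctrl and above it in BiDT. Ctrl cDC1 stood above Cd209a cells (125 CPM), C1q-rich cells (85.9 CPM) and Ccr7 Fscn1 cells (39.6 CPM) in its level. Of its ligands, Hmgb1 was at 443 and 417 CPM and Lgals9 at 42.7 and 51.8 CPM, and both intervals included no change.

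Most genes known as targets of interferon gamma had a ratio above 0, by differing amounts. Of 19 compared, 5 were at least 2-fold higher, against 3.74% of all compared genes, and none 2-fold lower. The ratio was above 0 for 17, and the median log2 ratio was 0.53. The counting interval lay above no change for 10 and below it for 1. These counts include Cxcl9, whose ratio rested on 1 cell. With cells thinned to 1000 UMIs only 3 could be compared, and their median was -0.52. The highest was Cxcl10, a chemokine for activated T cells, with 61 UMIs in 32 Ctrl cells and 192 UMIs in 31 BiDT cells (65.2 and 497 CPM, 2.93, 2.51 to 3.37). Iigp1 and Irgm1, GTPases of cell-autonomous defence, had log2 ratios of 1.87 and 1.88, while the guanylate-binding proteins Gbp2 and Gbp5 stood at 0.19 and 0.22.

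Cxcl9, the chemokine by which cDC1 are best known to draw T cells, rested on 1 cell. It had 368 UMIs in 58 Ctrl cells and 218 in 24 BiDT cells, or 393 and 564 CPM, a log2 ratio of 0.52 (0.27 to 0.77). A single BiDT cell held 56.4% of the UMIs. Without the cell with the most UMIs in each library the values were 353 and 265 CPM and the log2 ratio was -0.42 (-0.76 to -0.08). Thinned to 1000 UMIs, 23.8% of Ctrl cDC1 (16.8% to 32.1%) and 14.8% of BiDT cDC1 (7.90% to 24.4%) had a UMI of it, against 5.68% and 2.63% of Cd3 cells.

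Most chemokines and receptors had a ratio above 0, with exceptions. Of 16 compared, 5 were at least 2-fold higher and Ccl17 2-fold lower, against 3.74% and 3.14% of all compared genes. The ratio was above 0 for 13, with a counting interval above no change for 10 and below it for 2. Cxcl9 is again among them, 3 were within reach of free RNA, and the median log2 ratio was 0.51. Ccl4, which attracts T and NK cells, was the most abundant, with 1518 UMIs in 82 Ctrl cells and 1502 in 68 BiDT cells, or 1622 and 3888 CPM, a log2 ratio of 1.26 (1.16 to 1.37). The monocyte chemokines Ccl7 (57.7 and 308 CPM, 2.42, 1.94 to 2.91) and Ccl2 (96.2 and 448 CPM, 2.22, 1.84 to 2.60) were higher too, and C1q-rich cells held 2837 and 2082 CPM of them in BiDT. Ccl3 (250 and 523 CPM) was within reach of free RNA by the rule used for Slfn4.

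Ccl17, a ligand of Ccr4 and a mark of maturing DCs, went from 618 UMIs in 50 Ctrl cells to 85 in 14 BiDT cells, or 660 and 220 CPM, a log2 ratio of -1.59 (-1.93 to -1.26). A single BiDT cell held 56.5% of its UMIs, and without the top cell of each library the log2 ratio was -2.51. In Ctrl it was highest in the members with 2 UMIs of Xcr1 and Clec9a (1121 CPM) and lowest in those with 5 or more (275 CPM). Cxcl16, a scavenger receptor ligand for Cxcr6 T cells, was lower as well (463 and 293 CPM, -0.66, -0.97 to -0.36).

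The MHC class I list as a whole was close to the background. Of its 27 compared genes, cross-presentation included, 2 were at least 2-fold higher, where 3.74% of all compared genes were, and none was 2-fold lower. The median log2 ratio was 0.24, 8 genes lay below 0, and the median was 0.035 in members with no C1q UMI. The classical heavy chain H2-K1 went from 1870 to 3070 CPM (0.72, 0.61 to 0.82), H2-D1 from 2341 to 2972 CPM (0.34, 0.24 to 0.45), and their partner B2m from 2717 to 3187 CPM (0.23, 0.13 to 0.33). The 2 genes past 2-fold were H2-Q4 (81.2 and 199 CPM) and H2-Q6 (141 and 324 CPM), which are close copies whose reads may be shared. The peptide supply differed less, with Tap1 at 0.10, Psmb8 at -0.17 and Psme1 at 0.14 on the log2 scale. Cybb, a subunit of the phagosomal oxidase, had the lowest ratio (215 and 145 CPM, -0.57, -1.02 to -0.13), but its direction turned to 0.064 with 1 choosing UMI accepted and to 3.0 under the rule of 6 other cDC1 genes.

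MHC class II genes did not follow. Of 13 compared, 1 was at least 2-fold higher, against 3.74% of all compared genes. For 9 the ratio was under 0, and the median log2 ratio was -0.17. Under the rule of 6 other cDC1 genes that median was 0.035. The invariant chain Cd74 was at 18069 and 17094 CPM (-0.08, -0.12 to -0.04, but 0.058 with Malat1 held to 1% of a cell), H2-Ab1 at 10632 and 10767 CPM (0.02, -0.03 to 0.07) and H2-Eb1 at 7586 and 5657 CPM (-0.42, -0.49 to -0.35). Ciita, the master switch of the class II genes, was at 249 and 171 CPM (-0.54, -0.96 to -0.14). The one gene past 2-fold was Lgmn, a lysosomal protease, at 95.1 and 241 CPM (1.34, 0.91 to 1.78).

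Costimulation was modestly higher in part. Of 13 compared genes of the maturation list 2 were at least 2-fold higher and Ccl17 2-fold lower, against 3.74% and 3.14% of all compared genes. The median log2 ratio was 0.42. Cd86, a ligand of CD28, had 256 UMIs in 87 Ctrl cells and 141 in 52 BiDT cells (274 and 365 CPM, 0.42, 0.11 to 0.72), while its relative Cd80 was at 160 and 161 CPM (0.00, -0.45 to 0.44). Cd83 went from 561 to 836 CPM (0.58, 0.37 to 0.78) and Cd274, the gene of PD-L1, from 140 to 207 CPM (0.57, 0.15 to 0.98). Cd40, which takes the signal of helper T cells, was past 2-fold on 26 and 25 UMIs (27.8 and 64.7 CPM, 1.22, 0.37 to 2.07), and without the top cell of each library its interval included no change (0.88, -0.09 to 1.82). Pdcd1lg2, the gene of PD-L2, was lower (98.3 and 51.8 CPM, -0.92, -1.70 to -0.22), but not with 1 choosing UMI accepted (0.053). The other gene past 2-fold was Marcksl1 (53.4 and 155 CPM, 1.54, 0.97 to 2.11), of whose BiDT UMIs a single cell held 38.3%.

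Cytokines were sparse. Only 5 of 18 reached the count needed. Il1rn, the antagonist of the IL-1 receptor, went from 207 to 515 CPM (1.31, 1.02 to 1.61) and Tnf from 104 to 189 CPM (0.87, 0.41 to 1.32), while Il1b was at 2939 and 2736 CPM (log2 ratio -0.10). Il12b, a subunit of IL-12, had 19 UMIs in 6 Ctrl cells and 21 in BiDT that all came from 1 cell. It was thus seen in 4.62% of Ctrl cDC1 (1.71% to 9.78%) and 1.23% of BiDT cDC1 (0.0313% to 6.69%), and Ccr7 Fscn1 cells held 353 and 678 CPM of it. Il15 had 9 and 6 UMIs, Il12a 1 and 0, and Ifnb1 and Ifnl2 none, so nothing could be read of them at this depth.

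Cell cycle genes had no direction that held in all settings. Of 14 compared, 10 had a ratio under 0 and the median log2 ratio was -0.22. At least 2-fold lower was 1, against 3.14% of all compared genes, and none was 2-fold higher. In members with no C1q UMI, where 7 could be compared, the median was 0.86. Top2a was at 192 and 176 CPM (-0.13, -0.55 to 0.28) and Pcna at 198 and 192 CPM. Ube2c, needed to leave mitosis, was the exception at 155 and 57.0 CPM (-1.44, -2.16 to -0.79), with 40.0% of its Ctrl UMIs and 40.9% of its BiDT UMIs in 1 cell each. Thinned to 1000 UMIs, 75 of 130 Ctrl cDC1 (57.7%, 48.7% to 66.3%) and 38 of 81 BiDT cDC1 (46.9%, 35.7% to 58.3%) had at least 2 UMIs of the list.

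Genes of cholesterol synthesis were among the lower ones. Of 13 compared, 4 were at least 2-fold lower, against 3.14% of all compared genes, and none higher. The median log2 ratio was -0.56, and 3 had an interval under no change. This list too is no independent evidence, since it had been drawn up on these libraries. Fdps, which makes farnesyl diphosphate, had 144 UMIs in 49 Ctrl cells and 17 in 10 BiDT cells, or 154 and 44.0 CPM, a log2 ratio of -1.81 (-2.62 to -1.08). Msmo1 was at 50.2 and 15.5 CPM (-1.69, -3.21 to -0.46) and Idi1 at 62.0 and 28.5 CPM (-1.12, -2.20 to -0.18). Insig1, which holds the pathway back, was at 47.0 and 23.3 CPM (-1.01, -2.23 to 0.04). Hmgcs1 (0.11) and Ebp (0.17) did not share this. The regulator Srebf2 was at 205 and 166 CPM (-0.31, -0.74 to 0.11).

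Fdps and Msmo1 were among the 15 genes named for the lowest ratios, and the other 13 came mostly from outside the lists. Sulf2, an extracellular sulfatase, had 54 and 4 UMIs (-2.48, -4.40 to -1.04). Areg, a ligand of the EGF receptor, had 85 and 7, but 77.6% of its Ctrl UMIs sat in 1 cell, and without the top cells its log2 ratio was -0.98 (-3.00 to 0.61). Lamtor5, of the lysosomal Ragulator complex, had 99 UMIs in 54 Ctrl cells and 11 in 9 BiDT cells (-1.89, -2.94 to -0.99). Hpf1, a cofactor of PARP1, had 82 and 8 (-2.08, -3.34 to -1.03), and Tecr, of fatty acid elongation, 78 and 10 (-1.69, -2.80 to -0.73). Txnl4a, Suclg1, Apex1, Hcfc1, Nolc1, Isyna1, Kdm4a and Ufsp2 completed them, each with 4 to 8 UMIs in BiDT.

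Uptake and sensing genes were balanced. Of 10 compared, 1 was 2-fold higher and 1 lower, against 3.74% and 3.14% of all compared genes, with a median log2 ratio of 0.02. Axl, a receptor for dying cells, was lower (121 and 51.8 CPM, -1.22, -1.99 to -0.53), and Fcgr1, a receptor for IgG, was higher (50.2 and 122 CPM, 1.28, 0.66 to 1.89). Tlr3 stayed at 127 and 142 CPM. Genes of the cDC1 programme itself were also near their Ctrl levels, with none of 17 past 2-fold and a median log2 ratio of 0.14. These levels partly follow the choice of cells, since 2 UMIs of Xcr1 and Clec9a were asked at either depth. Cadm1 was highest (113 and 173 CPM, 0.62, 0.15 to 1.07) and Nfil3 lowest (230 and 145 CPM, -0.66, -1.12 to -0.23, but 0.19 under the rule of 6 other cDC1 genes), and Id2 (-0.52) and Itgae (-0.45) were lower too.

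Early response and heat shock genes, which can also mark tissue digestion, had a median log2 ratio of 0.52 over 20 genes. Past 2-fold were 2, Ier3 (417 and 880 CPM, 1.08) and Atf3 (311 and 626 CPM, 1.01), against 3.74% of all compared genes. The ratio was above 0 for 14 of the 20. The counting interval lay above no change for 12 and below it for 2, against 529 and 495 of all 4041 compared genes. Fos was at 1245 and 2092 CPM (0.75, 0.62 to 0.88), while the heat shock genes Hspa8 (0.09) and Dnajb1 (-0.76) were not. Their part in the other differences was not tested.

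Transcripts of other cell types were present, and some of them differed between the libraries. All 13 macrophage markers had UMIs in both, summing to 3231 CPM in Ctrl and 2943 CPM in BiDT, with Lyz2 at 1557 and 634 CPM. The 8 monocyte markers summed to 1439 and 1424 CPM, though single genes went both ways. Ly6c2 was at 134 and 386 CPM, and Fn1 at 406 and 184 CPM. The 8 markers of type 2 and monocyte-derived DCs summed to 1009 and 888 CPM, with Mgl2 at 291 and 251 CPM. The 6 neutrophil markers summed to 68.4 and 497 CPM, with Retnlg at 0 in Ctrl. G0s2, also on that list, had 81 UMIs in 7 BiDT cells, of which 1 cell held 72.8%. The 9 NK markers summed to 28.8 and 176 CPM, with Klrb1c and Ncr1 at 0 in both libraries, and Gzma at 0 and 17 UMIs. The 7 T cell markers beyond the rule summed to 15 UMIs in Ctrl and 14 in BiDT, or 16.0 and 36.2 CPM. Of these, Cd8a had 6 UMIs in each library and Cd4 was at 0 in both. Among B cell markers, Cd79a and Ms4a1 were at 0 in both libraries, while Ighm was at 70.5 and 148 CPM. Leaving out every member with a neutrophil marker UMI left 106 Ctrl and 65 BiDT cells. In these, 139 of 3407 compared genes were at least 2-fold higher and 132 lower.

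Set beside the other DC classes, cDC1 had larger interferon ratios than Cd209a cells. The classes share the 2 libraries, so their ratios are given side by side with no test of the difference. In Cd209a cells 2.23% of 5429 compared genes were at least 2-fold higher and 2.89% lower, and in Ccr7 Fscn1 cells 4.64% of 5582 and 5.07%. Over the 32 interferon list members compared in all 3 classes, 27 were at least 2-fold higher in cDC1, 8 in Cd209a cells and 23 in Ccr7 Fscn1 cells, with medians of 1.54, 0.79 and 1.43, and 31 had a higher ratio in cDC1 than in Cd209a cells. The Cd209a cells of Ctrl already held more of these transcripts, such as Isg15 at 373 CPM against 139 CPM in cDC1 and Rsad2 at 87.3 against 17.1 CPM. Per cell the list took a median of 0.624% of UMIs in Ctrl Cd209a cells and 1.39% in BiDT, and 0.267% and 0.746% in Ccr7 Fscn1 cells. Beside C1q-rich cells the log2 ratios went both ways. They were larger there for Isg15 (3.75 against 2.47 in cDC1), Irf7 (4.16 against 2.43) and Oas3 (4.10 against 2.51). They were smaller there for Ifit2 (4.19 against 5.61), Rsad2 (4.42 against 5.21) and Oasl1 (3.76 against 4.08).

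Class II, sterol and early response genes had other orders. The class II median was -0.17 in cDC1, -0.12 in Cd209a cells and -0.78 in Ccr7 Fscn1 cells, with 4 genes at least 2-fold lower in the last. The sterol median was -0.56, -1.04 and -0.96, with 4, 7 and 6 genes at least 2-fold lower. The early response median was 0.52, 0.12 and 0.25. Wdfy4 was at 915 and 906 CPM in cDC1, which were chosen by other genes of its programme. In Cd209a cells Wdfy4 went from 224 to 125 CPM and in Ccr7 Fscn1 cells from 68.9 to 28.3 CPM. Cxcl10 reached 3057 CPM in BiDT Cd209a cells, above the 497 CPM of cDC1.

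**Figure D4:**
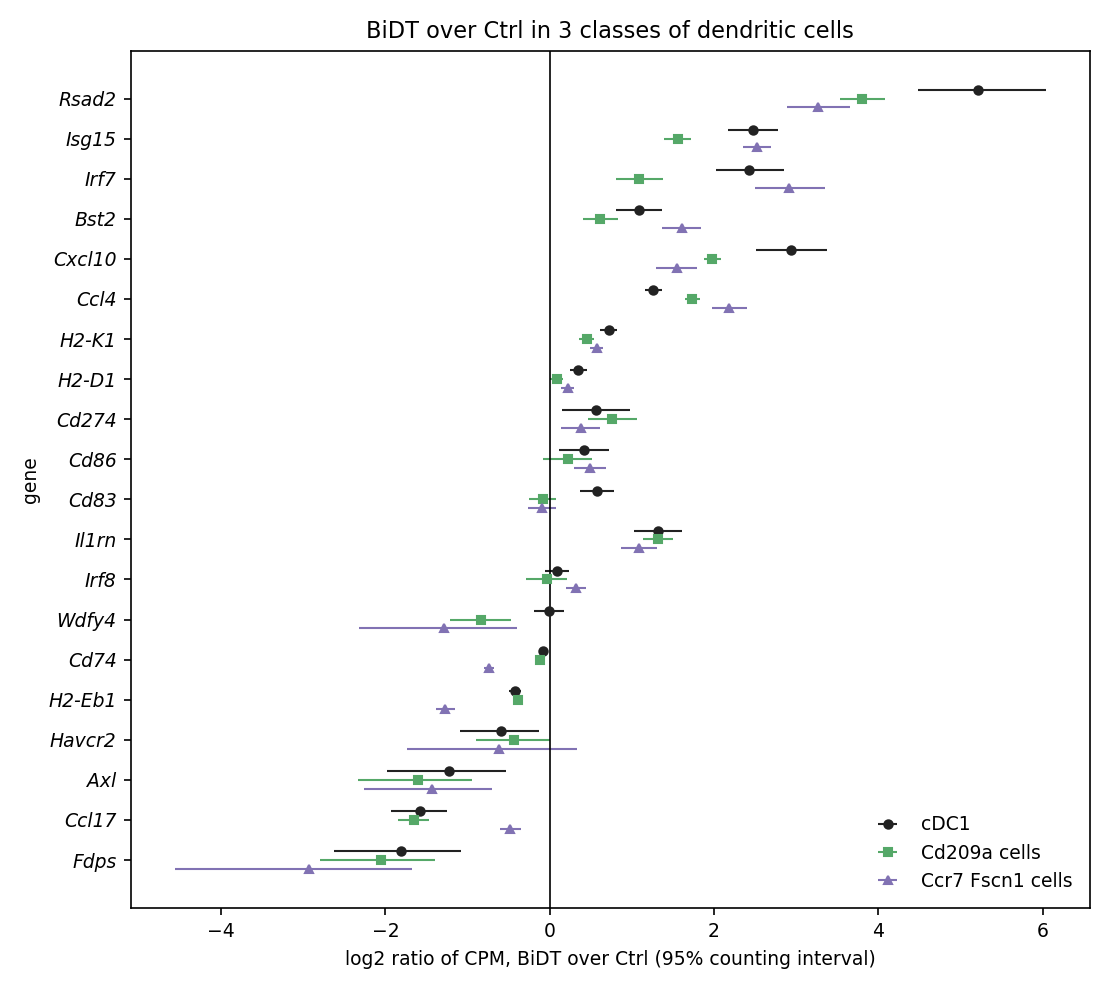
Log2 ratio of CPM, BiDT over Ctrl, of 20 genes in cDC1, Cd209a cells and Ccr7 Fscn1 cells (horizontal axis), with 95% counting intervals as bars. The interferon-stimulated genes Rsad2, Isg15 and Irf7 lay to the right in all 3 classes, Irf8 stayed near 0, and Ccl17 and Fdps lay to the left.

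**Figure D5:**
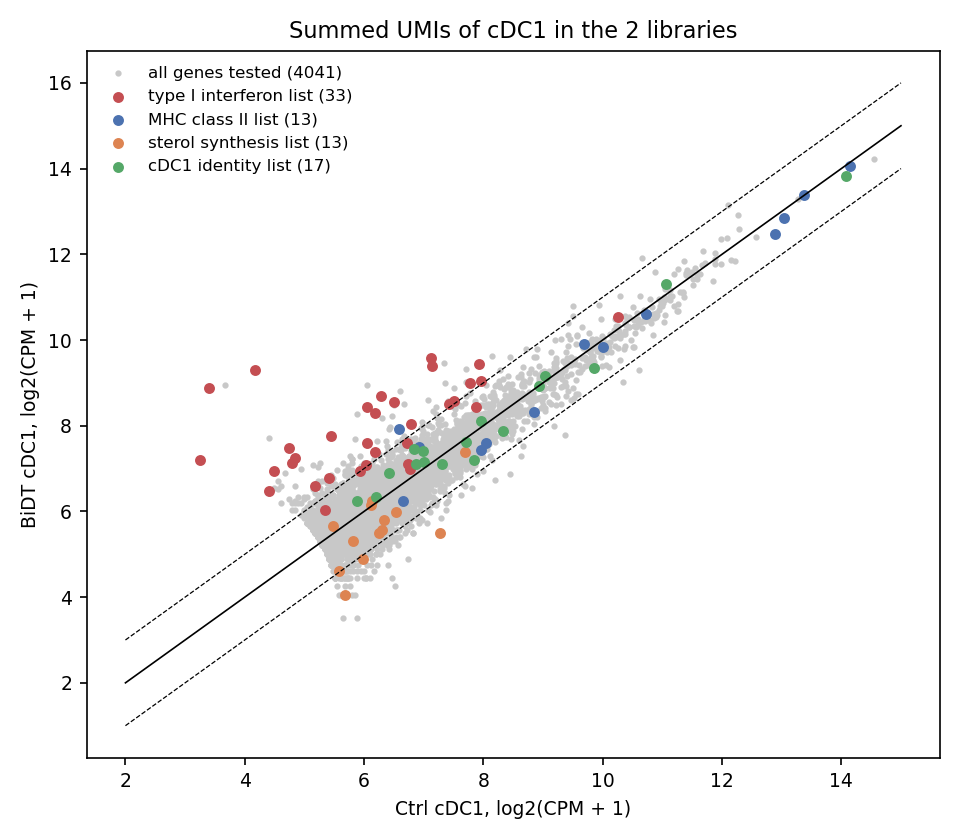
Summed level of 4041 genes in Ctrl cDC1 (horizontal) and BiDT cDC1 (vertical) as log2(CPM + 1), with 4 lists in colour, a solid line of equality and dashed lines at 2-fold. The type I interferon list lay above equality at low to middle levels, while the MHC class II and cDC1 identity lists ran along it.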

How the data were processed

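Gene expression was measured by droplet single-cell RNA sequencing in 1 library of CD45+ tumour cells per group. The authors deposited UMI counts per gene and cell, whole numbers that were not normalized, in 1 matrix per library. Cell Ranger 7.1.0 and the build GRCm39 are listed in the submitters' processing notes. The barcodes do not have the form that Cell Ranger writes, so how the deposited counts were made is uncertain, and the sources used here do not name an annotation release, a strand setting or a rule for multi-mapped reads.

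Cells with under 500 UMIs or over 10% mitochondrial UMIs were left out, which removed 1702 Ctrl and 573 BiDT barcodes, all for the mitochondrial share. Doublets were scored with Scrublet in scanpy 1.11.5 and kept. Counts were summed over the chosen cells of a library and scaled to counts per 1000000 UMIs (CPM). A gene was compared where both libraries together held at least 50 UMIs. The log2 ratio of BiDT over Ctrl has an exact conditional binomial interval, and shares of cells have exact Clopper-Pearson intervals, both at 95% and both for counting error only. Python 3.11.15, numpy 2.4.6, scipy 1.17.1 and pandas 2.3.3 were used. The interval and count code was tested on artificial counts of known fold. No test between groups was run, since each group is 1 library.

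The members and gene lists were chosen with earlier results of these data known. Genes were named by a rule: the 15 highest and 15 lowest ratios whose interval excluded no change, the 4 members of each list with most UMIs plus its highest and lowest, and all members of the marker, TIM3 and receptor, maturation and cytokine lists. The first part left out the genes of the cell rule, mitochondrial, ribosomal, receptor-segment, unnamed and sex-linked genes, and 26 genes within reach of free RNA, meaning that the level stayed under 10% of that in another class, in Ctrl and in BiDT alike. Slfn4, Ccl2, Ccl3, Irgm1, Iigp1, Gbp5, H2-Q6, Tap1, Cxcl16, Idi1, Insig1, Hmgcs1, Atf3, Itgae, Tlr3 and the transcripts of other cell types were named after their values were seen. Mx1, Mx2, Rigi, Cxcl11, Marchf1, Sting1 and Clec7a were not analysed here, and some other genes are not reported here. Promoter windows come from RefSeq at GRCm38.p6 and were matched by symbol. The alternatives tried were other cell rules, thinning, doublet, Malat1 and mitochondrial limits, TMM scaling, equal weight per cell and other count minimums. Leaving out members with neutrophil UMIs, and the cell with most UMIs of a gene, were added after the data were seen.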

Additional observations from a re-analysis of the deposited data

Results flagged for a closer look

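A total of 4 named genes stood on opposite sides of no change in cDC1 and in Cd209a cells, each with a counting interval apart from 0 in both classes. The difference was not tested for any of them, since each class has 1 library per group. Cxcl9 had a log2 ratio of BiDT over Ctrl of 0.52 in cDC1 and -1.04 in Cd209a cells, and the cDC1 value was -0.42 without the cell with most Cxcl9 UMIs in each library. Ly6e, an interferon-induced surface protein, had 0.29 in cDC1 and -0.22 in Cd209a cells. Il1b had -0.10 in cDC1 and 0.24 in Cd209a cells. Ube2c had -1.44 in cDC1 and 0.85 in Cd209a cells, on 145 and 22 UMIs in cDC1.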

How the results depend on the processing

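No paired analysis was possible because each group is 1 library, and for the same reason no replicate could be left out. The cause of the shifts below was not tested except where the setting itself changes which genes or cells enter. At a fold of 1.5, 472 of the 4041 compared genes were higher and 505 lower. The counts at least 2-fold higher and lower were 400 and 414 of 6815 compared with at least 20 UMIs per gene. They were 76 and 43 of 2241 with at least 100, and 34 and 23 of 645 with cells thinned to 1000 UMIs. In cells with no C1q UMI they were 83 and 74 of 1745, and with 1 UMI of Xcr1 and Clec9a accepted 332 and 160 of 6905. With each cell weighted equally they were 183 and 224 of 4041. The number of genes compared thus differed between settings. TMM scaling gave 135 and 154, with a shift of 0.0465 on the log2 scale. The share of kept cells had a log2 ratio of -0.27 with no C1q UMI, and the share of the DC classes 1.01 after thinning. The type I interferon median stayed above 1 under all 14 settings, at 1.99 with 1 choosing UMI accepted, 1.26 with 3 required, 2.15 thinned, 2.05 with at least 20 UMIs per gene and 1.25 with at least 100. With 1 choosing UMI the MHC class II median was -0.38 and the early response median 0.13. With 3 the sterol median was -1.48. With no C1q UMI the early response median was 0.26, the chemokine median 0.20 and the cell cycle median 0.86. Under the rule of 6 other cDC1 genes the medians were 0.035 for class II, 0.97 for cytokines, 1.19 for chemokines and -2.32 for sterol synthesis. The cytokine median was 0.89 with at least 20 UMIs per gene, and the interferon gamma median was -0.52 thinned.

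Of 1510 values of 115 named genes under these settings, 185 moved by more than the width of 1 side of their counting interval and 20, of genes whose interval excluded no change, reversed. Cxcl9 reversed to -0.54 with 1 choosing UMI, -0.43 with 3, -1.55 with no C1q UMI, -0.42 under the 6 genes and also without its top cells, -0.53 thinned and -0.60 with cells weighted equally. With 1 choosing UMI Cxcl2 was at -0.23, Cybb at 0.064 and Pdcd1lg2 at 0.053. With no C1q UMI Cxcl2 was at -0.62 and H2az1 at 0.12. Under the 6 genes Timd4 was at -0.078, Hmgb2 at -0.029, Fcer1g at 0.46, Cybb at 3.0, Socs3 at 0.62 and Nfil3 at 0.19. Fcer1g was at 0.0127 thinned and Cd74 at 0.058 with Malat1 held to 1% of a cell. Few cells and 386277 UMIs in BiDT limit what can be seen: cytokines and the Ccr7-bearing cells lay at the edge of detection.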
